A study of Mus musculus with 18 samples.

Results

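In mouse testis, 10 genes of the vascular endothelium were followed: the receptors Kdr, Flt1, Tek and Tie1, the junction and adhesion genes Cdh5, Pecam1 and Esam, the co-receptor Eng, and Vwf and Emcn. They were picked by gene symbol, as genes that mark endothelial cells, and all 10 were among the 20979 symbols of the deposited table. RNA was sequenced from frozen testis of ICR mice, an outbred strain, aged 10 weeks, in 18 libraries that form 6 groups of 3. The control group and the group given AOS at 10 mg/kg carried no diet label. The other 4 groups were labelled with a high-fat diet: HFD alone, HFD-AOS with AOS at 10 mg/kg, HFD-AOSFMT, whose label joins AOS at 10 mg/kg to FMT, and HFD-conFMT, whose label joins control to FMT. The labels do not spell out AOS or FMT. Nor do they state that each replicate was its own animal, and every p-value below is therefore relative to a spread among libraries that could be technical in part.

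Blood vessels of the testis run in the interstitium, between the seminiferous tubules, beside Leydig cells and macrophages, while the tubules themselves hold no vessels. Endothelial cells line these vessels. They grow and survive under VEGF, which signals through Kdr, and under the angiopoietins, which act on Tek. In whole tissue, fewer endothelial cells and less RNA per endothelial cell cannot be told apart.

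Values were read as FPKM, fragments per kilobase of transcript, scaled to the mapped fragments of each library. They summed to between 588081 and 637005 per library, and between 12996 and 13221 genes reached 1 FPKM. Absolute read depth was not estimated from these values, and counting intervals are left out. The tissue label was checked against marker genes. The Leydig cell list summed to between 2596 and 4968 FPKM and the spermatid list to between 42598 and 63114 FPKM, whereas the 10 endothelial genes together came to between 11.98 and 15.8 FPKM. Crisp1, a gene of the epididymis, was at 159 FPKM in control library 3 and 104 FPKM in HFD-conFMT library 2, against at most 8.6 FPKM in the other 16, so values without these 2 libraries are given where they bear on a result.

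The promoters of Kdr, Flt1 and Eng are shown because Eng and Kdr had the lowest p-values, and Flt1 the highest, in the test for any difference among the groups. Each is the RefSeq window from 250 bases before to 50 bases after the gene start on GRCm38.p6, 5′ to 3′ on the gene's own strand. Capitals mark AGGAAG, a core bound by ETS factors, the transcription factor family most tied to endothelial genes, or its reverse complement CTTCCT. The windows are chr5:75978406-75978705 (minus strand) for Kdr, chr5:147725962-147726261 (minus strand) for Flt1 and chr2:32646345-32646644 (plus strand) for Eng.
Kdr: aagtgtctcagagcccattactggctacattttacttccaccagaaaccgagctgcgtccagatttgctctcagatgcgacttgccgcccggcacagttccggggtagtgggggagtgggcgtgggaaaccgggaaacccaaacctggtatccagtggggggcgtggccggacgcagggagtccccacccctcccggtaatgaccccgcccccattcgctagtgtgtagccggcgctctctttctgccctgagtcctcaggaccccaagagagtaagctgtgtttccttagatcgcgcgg
Flt1: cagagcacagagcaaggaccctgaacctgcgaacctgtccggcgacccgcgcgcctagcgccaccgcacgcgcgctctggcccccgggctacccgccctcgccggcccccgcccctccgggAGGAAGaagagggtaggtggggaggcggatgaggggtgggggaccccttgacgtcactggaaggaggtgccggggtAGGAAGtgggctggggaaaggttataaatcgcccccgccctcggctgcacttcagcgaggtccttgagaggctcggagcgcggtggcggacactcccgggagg
Eng: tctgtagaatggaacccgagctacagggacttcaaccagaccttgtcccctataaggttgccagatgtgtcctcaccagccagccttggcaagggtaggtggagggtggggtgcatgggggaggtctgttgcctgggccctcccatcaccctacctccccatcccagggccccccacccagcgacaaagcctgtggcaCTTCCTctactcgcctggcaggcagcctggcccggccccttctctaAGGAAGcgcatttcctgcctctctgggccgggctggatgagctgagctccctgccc

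Of the 10 genes, 6 were matched to a promoter window, namely Kdr, Flt1, Tie1, Tek, Eng and Emcn. Flt1, Tie1, Eng and Emcn held 2 matches each to AGGAAG on either strand, and Kdr and Tek held 0. Such a match was present in 35.4% of 32851 windows of the same length. AGATAA, a core bound by GATA factors, searched on both strands, was found once in the Tek window and in 11.2% of all windows. These letters are a description of the windows and say nothing of binding.

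All 10 genes were expressed at low levels. Averaged over the 18 libraries, they ran from 0.481 FPKM for Tie1 to 2.83 FPKM for Eng, which placed them between percentile 30.0 and 50.6 of all symbols. Eng, a co-receptor for ligands of the TGF-beta and BMP family, was the highest in every library. Vwf, the clotting glycoprotein stored by endothelial cells, followed with 1.92 FPKM and lay above Flt1 in 18 of 18 libraries. Flt1 (1.30 FPKM), Esam (1.26), Cdh5 (1.23), Emcn (1.15), Kdr (1.01), Pecam1 (0.982) and Tek (0.982) formed a run in which neighbours did not separate. Flt1 lay above Esam in 10 of 18 libraries, Esam above Cdh5 in 8 and Kdr above Pecam1 in 10. Tie1, the orphan partner of Tek, was the lowest in level, and Tek lay above it in 18 of 18 libraries. A floor of 1 FPKM in the mean kept 7 genes in the main fit and left out Pecam1, Tek and Tie1. For these 3, p-values come from a fit of all 20576 genes not at 0 everywhere.

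**Figure D1:**
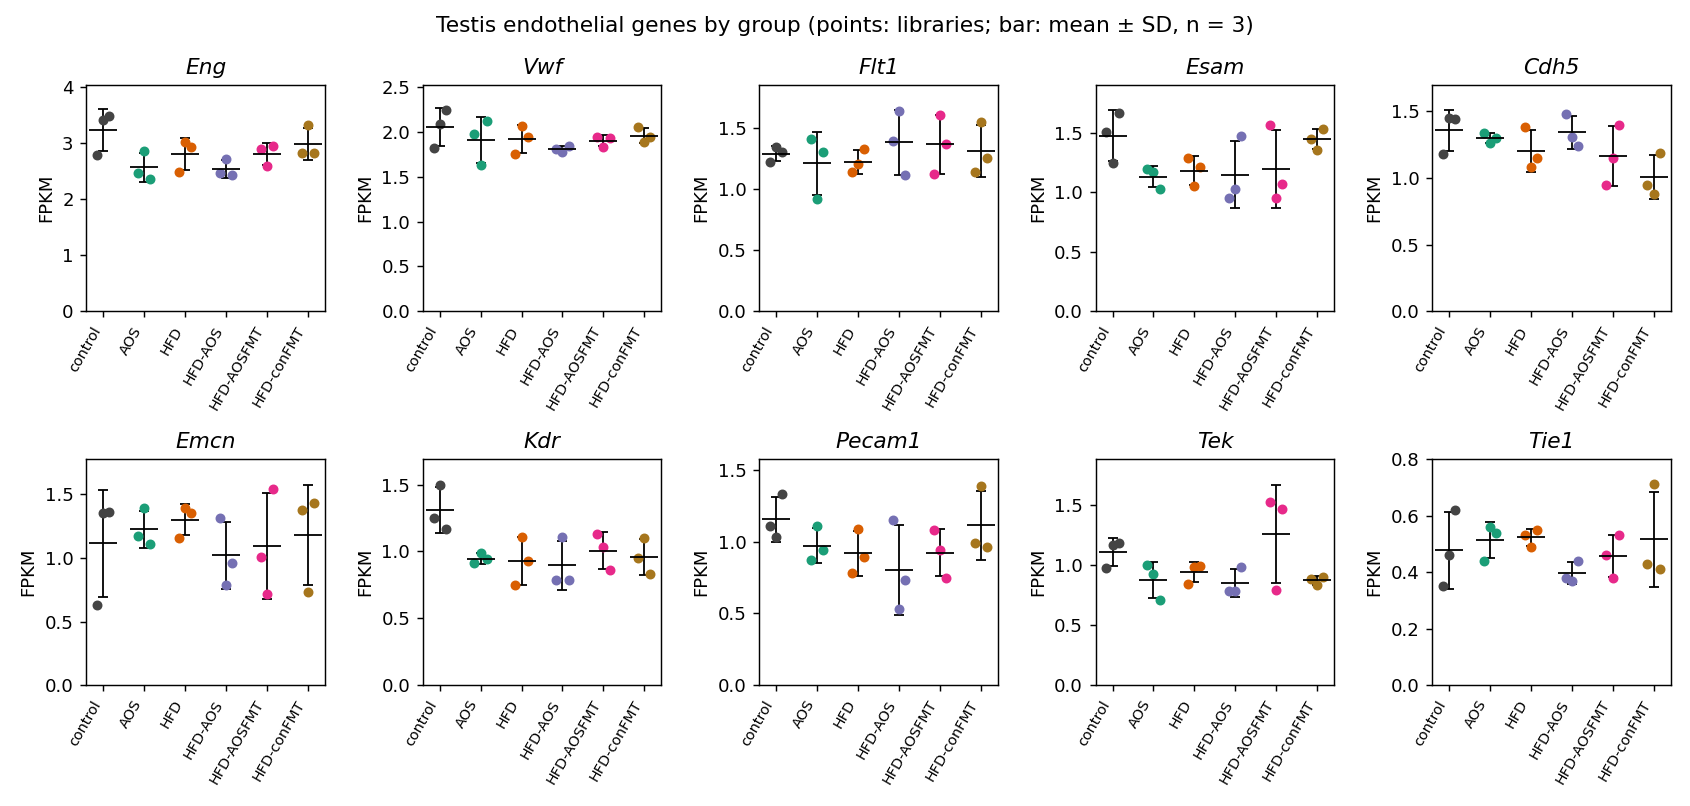
FPKM of each of the 10 endothelial genes (vertical axis, from 0) by group, with 1 point per library and the mean ± SD of 3 libraries. The 3 control libraries lie above the other 15 for Kdr, and the groups overlap widely for Flt1, Emcn and Vwf.

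For these 10 genes no difference between groups passed the test. Some differences of means were larger than the within-group SD of single libraries, which is not by itself a sign of an effect. Kdr averaged 1.31 FPKM in control and 0.93 FPKM in HFD, with a within-group SD of 0.150 FPKM. The within-group coefficient of variation ran from 8.08% for Vwf to 27.6% for Emcn, with a median of 16.2% over the 10 genes. The control group had the highest mean of the 6 groups for 6 of 10 genes, Pecam1, Cdh5, Kdr, Vwf, Eng and Esam, against 28.5% of all genes tested. HFD-AOS had the lowest mean for 7 of 10, Pecam1, Kdr, Tie1, Tek, Vwf, Eng and Emcn, against 24.5% of all genes. In limma's F test for any difference among the 6 groups, 0 of the 7 tested genes passed an adjusted p of 0.05, where 0.328% of 13105 genes did. At an unadjusted p under 0.05 the count was also 0 of 7, against 18% of all genes. The lowest adjusted p-values of that limma test were 0.313 for Eng and 0.333 for Kdr, and the highest was 0.929 for Flt1.

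Summed over the 10 genes, the control libraries 1, 2 and 3 held 12.84, 15.03 and 15.8 FPKM. The AOS libraries held 12.79, 12.81 and 12.36 FPKM and the HFD libraries 12.11, 13.47 and 13.28 FPKM. The HFD-AOS libraries held 12.52, 12.05 and 11.99 FPKM. Control libraries 2 and 3 were thus the highest of all, while control library 1 lay among the other groups. In control library 3, 10 of 10 genes were above their own mean over the 18 libraries, in control library 2 it was 8 and in control library 1 it was 3. Without control library 3, the median log2 difference of the 10 genes was -0.082 for HFD and -0.061 for AOS against control, against -0.11 and -0.098 with it. The HFD-AOSFMT libraries held 13.68, 11.98 and 13.87 FPKM, and the HFD-conFMT libraries 13.05, 13.75 and 13.26 FPKM.

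**Figure D2:**
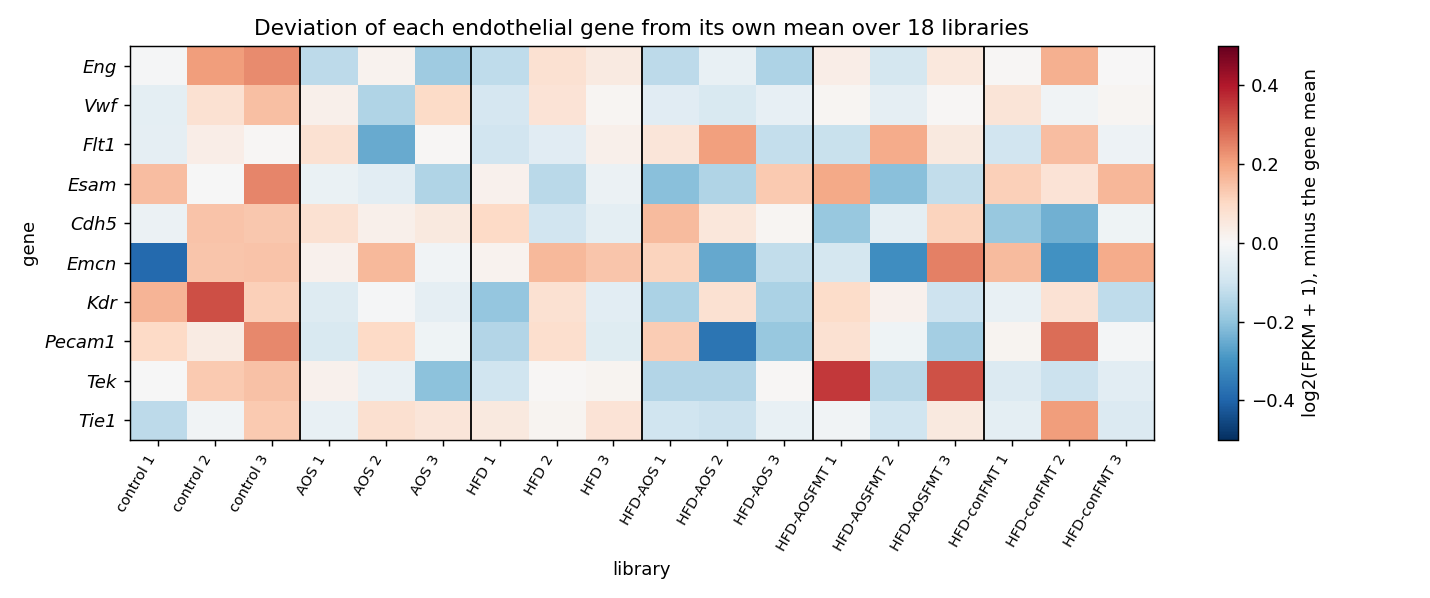
Deviation of log2(FPKM + 1) of each endothelial gene (rows) from its own mean over the 18 libraries (columns, by group), from blue for lower to red for higher. Control library 3 is above the mean for 10 of 10 genes, and Tek stands out in HFD-AOSFMT libraries 1 and 3.

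The first comparison asked what the high-fat diet did without further treatment. Kdr, the main signalling receptor for VEGF, was at 1.25, 1.50 and 1.17 FPKM in the control libraries and at 0.75, 1.11 and 0.93 FPKM in the HFD libraries. All 3 HFD values lay below all 3 control values. The means were 1.31 ± 0.172 FPKM in control and 0.93 ± 0.18 FPKM in HFD (SD, n = 3 each), a ratio of 0.712. On the log2(FPKM + 1) scale, which understates changes of low genes, the difference was -0.26 (SE 0.0940, 95% interval -0.46 to -0.06, limma adjusted p = 0.67). It did not pass the test over 13105 genes.

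Across the set, limma called 0 of 7 tested genes for HFD against control, and 0% of all genes. Kdr alone of the 7 had an unadjusted p under 0.05, a limit that 6.75% of all genes met. Kdr was also the one gene of the 10 whose 2 groups did not overlap, with lower values under the diet, as for 7.35% of all genes. Of the 10 fold changes, 8 were below 0, against 54.8% of all genes, with a median of -0.11 against -0.011 over all genes. Eng, at 2.80, 3.41 and 3.49 FPKM in control and 2.49, 3.02 and 2.94 FPKM in HFD libraries, had a ratio of 0.871 and overlapping groups. Tie1 and Emcn lay above 0. Emcn, a sialomucin of capillary and venous endothelium, was at 0.63, 1.35 and 1.36 FPKM in control and 1.16, 1.39 and 1.35 FPKM in HFD libraries, so that control library 1 set its mean apart.

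For AOS against control, without the diet, Kdr was at 0.91, 0.99 and 0.94 FPKM in the AOS libraries, again below each control library, with a ratio of means of 0.724. The log2 difference was -0.24 (SE 0.0940, 95% interval -0.44 to -0.04, limma adjusted p = 0.232). Over the whole series, the 3 control libraries lay above all 15 others for Kdr, an order found for 1.34% of all genes. The AOS and HFD comparisons share the control libraries, so their values for Kdr are not independent of each other.

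Eng was at 2.48, 2.86 and 2.37 FPKM in the AOS libraries against 2.80, 3.41 and 3.49 FPKM in control. AOS library 2 lay just above control library 1, so the groups overlapped. The means were 2.57 ± 0.257 and 3.23 ± 0.377 FPKM, with a log2 difference of -0.24 (SE 0.0850, 95% interval -0.42 to -0.06, limma adjusted p = 0.194). Its annotated span overlaps Fpgs on the opposite strand, at 10.7 FPKM on average, and the strand setting of the counting is unknown, so reads of the 2 genes may be mixed. Fpgs itself was at 9.85, 10.64 and 10.99 FPKM in control and 10.28, 10.28 and 9.75 FPKM in AOS libraries, which overlap.

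Esam, an adhesion molecule of endothelial tight junctions, was at 1.20, 1.17 and 1.03 FPKM in the AOS libraries and 1.51, 1.25 and 1.67 FPKM in control. The groups did not overlap, and the log2 difference was -0.21 (SE 0.109, 95% interval -0.44 to 0.02, limma adjusted p = 0.355). Of the 10 genes, Kdr and Esam had lower AOS values with no overlap, which held for 15.2% of all genes. In this comparison limma called 0 of 7 tested genes, where 0.0229% of all genes were called. At an unadjusted p under 0.05 there were 2 of 7, Kdr and Eng, against 15.8% of all genes. Of the 10 fold changes 8 were below 0, against 59.8% of all genes, with a median of -0.098 against -0.029.

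**Figure D3:**
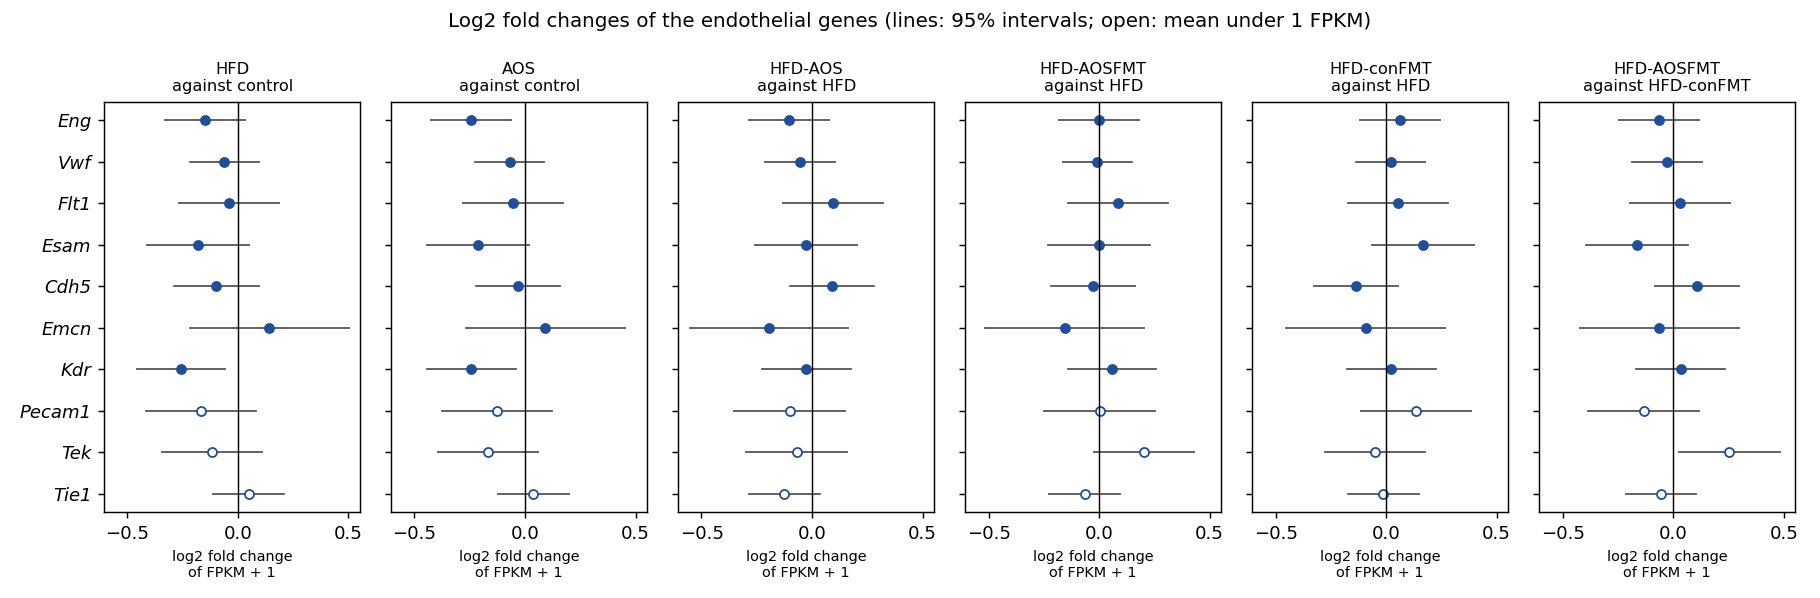
Log2 fold changes of FPKM + 1 (horizontal axis) for the 10 endothelial genes in the 6 comparisons, with 95% intervals from limma. Open points are genes with a mean under 1 FPKM, taken from the fit of all genes. The intervals that leave out 0 are those of Kdr under HFD and AOS, Eng under AOS, and Tek for HFD-AOSFMT against HFD-conFMT.

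Marker lists of other cells were set beside these differences, with 0 genes called by limma in any of them. Fold changes below 0 made up 54.8% of all genes for HFD and 59.8% for AOS against control. Of the fibroblast list, 8 of 8 tested genes had fold changes below 0 for HFD and for AOS against control, and its summed level was 80.84 to 85.24 FPKM in control, 62.39 to 73.88 in AOS and 60.48 to 87.37 in HFD libraries. Of the Leydig cell list, 6 of 9 were below 0 for HFD and 9 of 9 for AOS. Of the blood list, 4 of 5 were below 0 for HFD and 5 of 5 for AOS, with medians of -0.57 and -0.36. The blood list summed to 146.69 to 179.46 FPKM in control, 70.59 to 129.02 in HFD and 91.77 to 152.34 in AOS libraries, so HFD did not overlap control. Sums without overlap were not particular to blood. Under AOS they were also found against control for other lists, among them the fibroblast, Leydig and spermatid lists. Of the macrophage list, 9 of 11 were below 0 in both comparisons, while its sums overlapped, at 397.84 to 415.72 FPKM in control, 395.62 to 426.75 in HFD and 404.15 to 450.59 in AOS. Aif1 alone averaged 332 FPKM in control, 353 in HFD and 360 in AOS. The macrophage sums therefore mostly follow Aif1 and say little of the rest of that list. Other lists were mixed, with 5 of 9 Sertoli and 2 of 4 lymphatic genes below 0 in both. The mural list had 3 of 7 below 0 for HFD and 6 of 7 for AOS, and the endothelial transcription factors 5 of 7 and 3 of 7. The spermatid list lay mostly above 0, with 12 of 14 above 0 for HFD and 11 of 14 for AOS, and summed to 45358 to 51340 FPKM in control and 56438 to 58208 FPKM in AOS libraries. These values stand beside those of Kdr, Eng and Esam, and their part in them was not tested. Without control library 3 and HFD-conFMT library 2, which carry Crisp1, the Kdr difference was -0.30 for HFD and -0.29 for AOS, while that of Eng was -0.10 and -0.20. That of Esam was then -0.12 for HFD and -0.16 for AOS. Over 12851 genes, transcript length and fold change had a Spearman rho of -0.244 for HFD and -0.316 for AOS. Kdr, with a longest coding transcript of 5924 bases, is longer than the median gene at 2862 bases. With length and GC content adjusted, the Kdr difference was -0.23 for HFD and -0.18 for AOS.

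For AOS given with the diet, HFD-AOS against HFD, limma called 0 of 7 tested genes and 0% of all genes. At an unadjusted p under 0.05 the count was 0 of 7, against 12.7% of all genes. Tie1, the lowest gene in level, was at 0.38, 0.37 and 0.44 FPKM in HFD-AOS and 0.53, 0.49 and 0.55 FPKM in HFD libraries. These groups did not overlap, a lower order seen for 8.49% of all genes, and the log2 difference was -0.13 (SE 0.0747, limma adjusted p = 0.601 over 20576 genes). Kdr was at 0.79, 1.11 and 0.79 FPKM in HFD-AOS, within the range of the HFD libraries. Pecam1, an adhesion molecule of endothelial cells, platelets and leukocytes, was at 1.15, 0.53 and 0.73 FPKM, the widest spread among its 6 groups. Of the 10 fold changes, 8 were below 0, against 56.1% of all genes.

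The AOS effect with the diet was set against that without it by an interaction term. Limma called 0 of 7 tested genes and 0% of all genes, and 0 of 7 had an unadjusted p under 0.05, a limit met by 6.86% of all genes. The difference of effects was above 0 for 8 of 10 genes, with a median of 0.11, against 53% of all genes. Kdr had a value of 0.22 (limma adjusted p = 0.794). A different AOS effect under the diet was therefore not detected for these genes.

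The last 3 comparisons concerned the groups labelled FMT, and those against HFD share the HFD libraries. Limma called 0 of 7 tested genes for HFD-AOSFMT against HFD, where 0.0229% of all genes were called, and 0 of 7 for HFD-conFMT against HFD, where 0% were. For HFD-AOSFMT against HFD-conFMT it called 0 of 7, where 0.00763% of all genes were called. At an unadjusted p under 0.05 the count was 0 of 7 in each, against 9.82%, 12.3% and 3.12% of all genes. Tek, under the floor and so not among the 7, had an unadjusted limma p of 0.0304 for HFD-AOSFMT against HFD-conFMT. Fold changes divided nearly evenly by sign, with 5, 6 and 4 of 10 above 0, against 47.3%, 49.2% and 47.1% of all genes. For HFD-AOSFMT, 0 of 10 genes had groups without overlap against HFD, where 17.2% of all genes did, and 0 of 10 against HFD-conFMT, where 10.1% did.

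Tek, the receptor of the angiopoietins, was at 1.52, 0.79 and 1.46 FPKM in HFD-AOSFMT, at 0.84, 0.98 and 0.99 FPKM in HFD and at 0.88, 0.83 and 0.90 FPKM in HFD-conFMT libraries. HFD-AOSFMT libraries 1 and 3 were the highest of the series and library 2 lay below all HFD and HFD-conFMT libraries, so the groups overlapped. The ratio of means was 1.34 to HFD and 1.44 to HFD-conFMT. The log2 differences were 0.20 (SE 0.106, 95% interval -0.02 to 0.43, limma adjusted p = 0.65 over 20576 genes) and 0.25 (95% interval 0.03 to 0.48, limma adjusted p = 1 over 20576 genes). Single libraries weighed on both. Against HFD the Tek difference was 0.12 without HFD-AOSFMT library 1, 0.36 without library 2 and 0.13 without library 3. Against HFD-conFMT it was 0.17, 0.41 and 0.18. Esam was at 1.45, 1.36 and 1.53 FPKM in HFD-conFMT and 1.29, 1.05 and 1.21 FPKM in HFD libraries. Those groups did not overlap, a higher order found for 10.3% of all genes, with a log2 difference of 0.17 (limma adjusted p = 0.558). Cdh5, the cadherin of endothelial adherens junctions, was lowest in HFD-conFMT, at 0.95, 0.88 and 1.19 FPKM, and overlapped HFD at 1.38, 1.08 and 1.15 FPKM.

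Both VEGF receptors were set against each other within libraries, since FPKM is a level per length. Flt1 binds VEGF and signals weakly, and it also gives rise to a secreted form that gene-level values do not separate. The ratio of Kdr to Flt1 averaged 0.790 ± 0.174 (SD over 18 libraries) and was above 1 in 4 of them. It was 1.02, 1.12 and 0.90 in the control libraries, 0.645, 1.08 and 0.723 in AOS and 0.658, 0.925 and 0.699 in HFD libraries. It was 0.568, 0.677 and 0.712 in HFD-AOS, 1.01, 0.644 and 0.628 in HFD-AOSFMT and 0.833, 0.710 and 0.664 in HFD-conFMT libraries. Control lay above HFD-AOS and HFD-conFMT without overlap. It overlapped AOS, HFD and HFD-AOSFMT, so it did not stand apart from every other group in this ratio. Flt1 itself had its highest group mean in HFD-AOS, at 1.39, 1.64 and 1.11 FPKM, and the group overlapped every other. The ratio of Tek to Tie1 averaged 2.10 ± 0.524 and was above 1 in 18 of 18 libraries.

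The 10 genes varied together only weakly across libraries. Over 45 pairs the median Pearson r of log2(FPKM + 1) over 18 libraries was 0.170, from -0.423 for Flt1 and Esam to 0.681 for Kdr and Eng, and 32 pairs were above 0. With each group centred on its own mean, the median was 0.0468. Eng followed the mean of the other 9 most closely, with an r of 0.785, and Vwf had 0.577. Flt1 had -0.258 and Cdh5 -0.106. With each group centred, these values were 0.666 for Eng, -0.301 for Flt1 and -0.00536 for Cdh5, and Kdr (-0.126) and Esam (-0.119) were also below 0. Other lists had medians of 0.351 for mural cells, 0.381 for Leydig cells and 0.0257 for other endothelial genes. Across the other lists these medians ran from 0.00217 for endothelial transcription factors to 0.395 for fibroblasts. They cover only genes that passed the floor, whereas the 10 endothelial genes include Pecam1, Tek and Tie1, which did not. All these points share the depth and makeup of their library, and low values carry more noise.

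**Figure D4:**
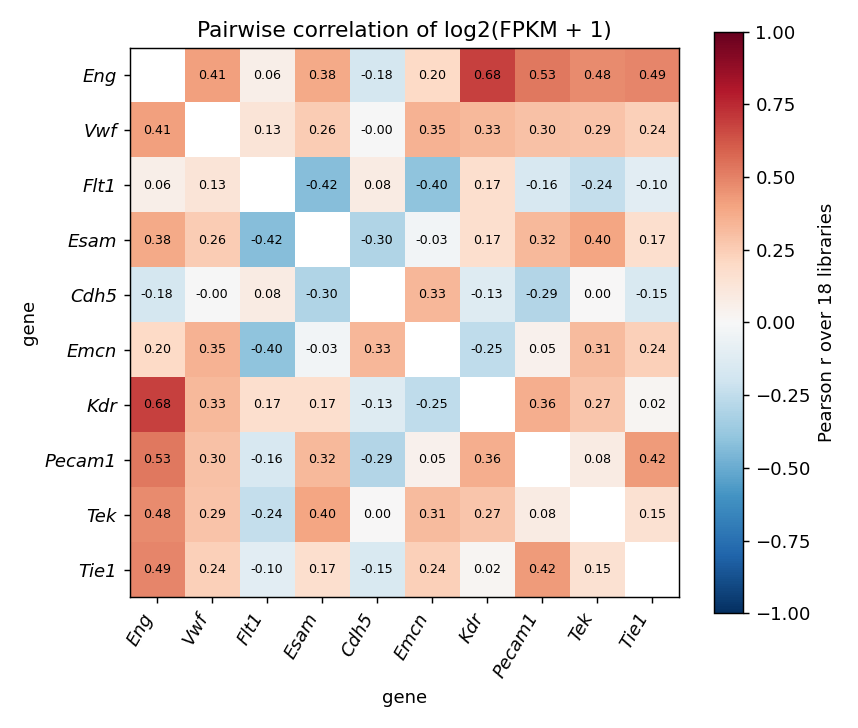
Pearson r of log2(FPKM + 1) over 18 libraries for each pair of the 10 endothelial genes, from blue for negative to red for positive. Kdr and Eng have the highest value and Flt1 with Esam the lowest.

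Genes whose pattern was most like the mean of the 7 tested genes were sought among 12082 others by Pearson r over 18 libraries. They were Soat1 (0.839), Kif1b (0.809), Mbtd1 (0.796), Slc35e2 (0.795) and Wdr19 (0.790). With each group centred they were Pcgf6 (0.855), Tmem39a (0.834), Rspry1 (0.825), Olfr126 (0.818) and Ankra2 (0.807). The 2 lists held no gene in common, and no gene of either was in a list of cell type or pathway genes. Those cell type and pathway lists cover only a small part of the genes searched, so this absence says little.

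Ligands of the VEGF and angiopoietin families were also measured. Of those that bind Flt1, Vegfb averaged 5.37 FPKM, Vegfa 1.82 and Pgf 1.61, against 1.30 for Flt1 itself, though the order varied by library. In HFD-AOS library 1, Pgf was at 1.08 and Flt1 at 1.39 FPKM. The angiopoietins Angpt2 and Angpt1, ligands of Tek, were at 0.902 and 0.113 FPKM. Vegfd (2.71 FPKM) and Vegfc (0.254 FPKM) bind Flt4, the receptor of lymphatic endothelium, which was at 2.51 FPKM, and Vegfc can also bind Kdr. Vegfa, the principal ligand of Kdr and named here after its values were seen, was at 1.49, 1.60 and 1.38 FPKM in HFD-AOS and 1.82, 1.81 and 1.76 FPKM in HFD libraries. All 15 other libraries lay above the 3 HFD-AOS libraries for Vegfa, an order found for 0.671% of all genes. The log2 difference to HFD was -0.17 (SE 0.0571, limma adjusted p = 0.278), which did not pass. Of the VEGF and Tie pathway list, 14 of 23 genes were tested and limma called 0 in any of the 6 comparisons. The list had 10 genes below 0 of 14 for HFD against control and 9 of 14 for AOS against control, beside 54.8% and 59.8% of all genes. Its highest in level were Vash2 (39.8 FPKM) and Hif1a (5.79 FPKM).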

How the data were processed

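RNA came from frozen testis, per the labels' protocols. Bowtie 0.12.2 and the mm10 build are named in the submitters' processing notes. For the counting tool, the annotation and the strand setting: not given in the sources used here. Per the file headers, the table deposited by the authors carries no unit name, and its values, made by the authors per gene and library to 2 decimals, were taken to be FPKM. Library sums differ and the smallest steps fall with transcript length (Spearman rho -0.493 over 1630 genes).

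Symbols given more than once (6 rows) were dropped, and 26 symbols have the form of dates. Values were taken as log2(FPKM + 1), and 13105 genes averaging 1 FPKM or more were tested. One limma 3.58.1 model (R 4.3.3) over all 6 groups, with a trend in the variance, gave two-sided p-values, adjusted by Benjamini-Hochberg over all genes, with a threshold of 0.05. Endothelial genes under that floor were read from the same model without it. The model was also run on simulated normal log2 values with the real means and spreads. No error rate from that run is given here. Lengths came from the GENCODE annotation of GRCm38. Figures used matplotlib 3.10.9 in Python 3.11.15.

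Named were the 10 genes, any gene of another list that was called, the 2 highest of each list, and the 5 genes of most similar pattern with and without centring. The VEGF and angiopoietin ligands, Flt4, Fpgs, Lcn8, Erg, Ets1 and Fli1 fall outside this rule and were named after their values were seen. The genes and lists were chosen with earlier results of these data known. Alternatives covered the pseudocount, the floor, scaling, array weights, the samples fitted, a replicate block, length and GC adjustment, and leaving out libraries.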

Additional observations from a re-analysis of the deposited data

How the results depend on the processing

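In every alternative run, limma called 0 of the endothelial genes it tested in each comparison. These were the 7 above the floor of 1 FPKM, or all 10 with no filter. With a floor of 5 FPKM no such gene was left to test. The median fold change of the 10 genes for HFD against control went from -0.11 to -0.18 with a pseudocount of 0.1, and that for AOS against control from -0.098 to -0.16, or to -0.15 with rescaled libraries. The difference of AOS effects was 0.18 with a pseudocount of 0.1. HFD-AOSFMT against HFD-conFMT gave 0.016 once the pair of Crisp1-bearing libraries was dropped. With single libraries left out, these medians ran from -0.16 to -0.082 (HFD against control), -0.13 to -0.061 (AOS against control), -0.10 to -0.044 (HFD-AOS against HFD), -0.030 to 0.034 (HFD-AOSFMT against HFD), -0.015 to 0.055 (HFD-conFMT against HFD), -0.051 to 0.016 (HFD-AOSFMT against HFD-conFMT) and 0.064 to 0.16 (difference of AOS effects). Counts over all genes were less stable. For HFD against control it was 1 with only those groups fitted. AOS against control had 0 with no filter, quantile scaling, rescaling, only those groups, or both libraries out, 5 with library medians aligned and 240 with array weights. HFD-AOS against HFD had 2 with no filter. HFD-AOSFMT against HFD had 26 with no filter, 5 with the 5 FPKM floor, 7 with array weights, and 1 under quantile scaling, rescaling, library medians, length and GC adjustment, both libraries out or the replicate block. HFD-conFMT against HFD had 3 with no filter, 9 with array weights, and 1 with only those groups or both libraries out. HFD-AOSFMT against HFD-conFMT had 16 with no filter. The F test had 12 under quantile scaling, 130 with array weights, 5 with length and GC adjustment, 1 with both libraries out and 20 with the replicate block. Leaving out 1 library, counts ran from 0 to 44 for AOS against control, 0 to 4 for HFD-AOS against HFD, 1 to 6 for HFD-AOSFMT against HFD, 0 to 17 for HFD-conFMT against HFD, 1 to 1 for HFD-AOSFMT against HFD-conFMT and 2 to 145 for the F test. The causes were not tested. Same-numbered libraries had correlations from -0.243 to 0.167 (median -0.00911 over 45 pairs). No pairing by number was seen in these values, which cannot exclude one. The replicate block called 0 of the 7 tested genes. Depth was not estimated, and levels near 1 FPKM limit what can be detected.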

Other observations

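Limma called 0 genes of the other lists in any of the 6 comparisons. Highest among other endothelial genes were Cav1, the caveolae protein, at 4.83 FPKM and Cd34, a surface sialomucin, at 4.78 FPKM. Cav1 was at 5.26, 5.74 and 7.05 FPKM in HFD-conFMT and 4.08, 4.93 and 3.66 FPKM in HFD libraries. These groups did not overlap, a higher order found for 10.3% of all genes. The log2 difference was 0.42 (SE 0.104, limma adjusted p = 0.166). Of 10 other endothelial genes tested, 7 were below 0 for HFD and 7 for AOS against control, beside 54.8% and 59.8% of all genes. Among endothelial transcription factors, Klf4 (52.2 FPKM) and Klf2 (12.0 FPKM) were highest, and 6 of 7 tested were above 0 for HFD-AOS against HFD, beside 43.9% of all genes. This list holds 16 genes. Erg (0.658 FPKM), Ets1 (0.545) and Fli1 (0.394) were among those under the floor, so they were not in the main fit. Which cells gave the values of the 7 was not tested.

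Highest in the lymphatic list were Ccl21a (12.4 FPKM) and Prox1 (5.15), in the mural list Acta2 (21.7) and Tagln (7.84), and in the platelet list Gp1bb (3.75) and Pf4 (3.00). The mural list had 7 of 7 genes below 0 for HFD-AOSFMT against HFD, beside 52.6% of all genes. In that comparison the earlier germ cell list had 11 of 11 below 0, while the macrophage list had 10 of 11 above 0. Mural genes varied together, with a median r of 0.566 with each group centred, so their signs are not independent. In the blood list Hba-a1 (75.0 FPKM) and Hbb-b1 (29.2) led, in the macrophage list Aif1 (355) and Lyz2 (17.3), and in the fibroblast list Dcn (39.0) and Mgp (11.7). Insl3 (3022 FPKM) and Cyp17a1 (281) led the Leydig list, and Clu (485) and Cldn11 (33.6) the Sertoli list. Prm1 (14836 FPKM) and Tnp2 (14237) led the spermatids, Ddx4 (221) and Sycp3 (182) the earlier germ cells, and Crisp1 (15.4) and Spink8 (4.74) the epididymis list, in which Lcn8 was listed at 0 in every library.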
